A study of Mus musculus with 8 samples.

Results

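The genes described here are 6 markers that have been proposed to tell regulatory T cells of thymic origin from those of extrathymic origin: Nrp1, Swap70, Gpr83, Dapl1, Igfbp4 and Cd83. They were chosen by name, with earlier results of these data known. Their counts and medians, set beside those of all probe sets, are therefore a description and not a test. The probe sets were taken as all those that carry the single Entrez identifier of one of these genes in the deposited table. This gave 16 probe sets for the 6 genes, out of 37579 probe sets that carry 1 identifier and represent 20665 genes.

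Regulatory T cells are CD4+ T cells that carry the transcription factor Foxp3 and restrain immune responses. Most of them acquire Foxp3 while they mature in the thymus, and others acquire it in peripheral tissues after conventional T cells meet antigen. Both kinds share the core Foxp3 programme, so surface proteins and transcripts that differ with origin have been sought as markers. Nrp1 and Swap70 have been proposed for thymic origin, and Dapl1 and Igfbp4 for extrathymic origin.

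The arrays measured CD4+CD25+ T cells that were sorted by flow cytometry into GFP-RFP+ cells, named peripherally induced in the labels, and GFP+RFP+ cells, named thymically induced. Each population was taken from spleen and from lymph nodes, which gives the groups spleen GFP-RFP+, spleen GFP+RFP+, lymph node GFP-RFP+ and lymph node GFP+RFP+. The organs of 20 untreated mice, 14 to 17 weeks old, were pooled, 50 ng of total RNA was labelled, and each of the 4 pools was hybridised to 2 arrays that the labels call technical replicates. The sources used here name neither the strain nor the alleles and promoters behind the GFP and RFP reporters.

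Each pool was therefore counted as 1 sample, and each population had 2 pools, 1 per organ. The spread between mice or between sorts could not be measured. Signals are the authors' dChip values on a linear scale, and differences are given on the log2(signal + 1) scale, which understates the change of dim probe sets. With RNA from sorted pools, fewer cells of one kind and less RNA per cell cannot be told apart. The number of arrays limits the precision.

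The median signal per array lay between 24.97 and 27.0, and technical arrays of a pool correlated at 0.974 to 0.979 across probe sets, against 0.959 to 0.974 for arrays of different pools. Foxp3 itself, which defines the lineage, had signals of 1003 and 905 in spleen GFP-RFP+ cells, against 1579.9 and 1427 in spleen GFP+RFP+ cells. In lymph nodes it had 992 and 1084 in GFP-RFP+ cells, against 1386 and 1529.9 in GFP+RFP+ cells. Foxp3 was called present on all 8 arrays and was lower in the GFP-RFP+ population in both organs, with a difference of -0.57 ± 0.12 on the log2 scale (limma adjusted p = 0.254, and 0.0188 with a pseudocount of 16). Among the other 4 regulatory T cell markers, all present on all arrays, Il2ra differed by -0.86, Ctla4 by 1.45, Ikzf2 by -0.12 and Tnfrsf18 by 0.06. The 4 measured T cell markers were all higher in GFP-RFP+ cells: Cd3e by 0.27, Cd3g by 0.29, Cd4 by 0.48 and Lck by 0.24. Of these only Cd4 passed with a pseudocount of 16 (limma adjusted p = 0.0297), where 5.97% of all probe sets passed as higher. None passed with a pseudocount of 1. Myeloid, B cell, plasma cell and erythroid markers had higher sums in the spleen pools, and NK and CD8 T cell markers did not. The summed signal of the 6 myeloid and dendritic cell markers was 1279 to 1849 in spleen GFP-RFP+ and 1019.8 to 1327 in spleen GFP+RFP+ cells, against 142 to 146 in lymph node GFP-RFP+ and 146.3 to 146.5 in lymph node GFP+RFP+ cells. The sum of the 4 measured B cell markers was 372 to 553 in spleen GFP-RFP+ and 342 to 511 in spleen GFP+RFP+ cells, against 140.0 to 148 in lymph node GFP-RFP+ and 214 to 215 in lymph node GFP+RFP+ cells. Pax5 of the B cell, Sdc1 of the plasma cell, Klrb1c of the NK and Hba-a1 of the erythroid markers were called present on no array. The 5 erythroid markers summed to 765 to 968 in spleen GFP-RFP+ and 360.1 to 599 in spleen GFP+RFP+ cells, against 95.8 to 98.6 in lymph node GFP-RFP+ and 65.0 to 83.0 in lymph node GFP+RFP+ cells. The 3 plasma cell markers summed to 3498 to 3632 in spleen GFP-RFP+ and 2126 to 2768 in spleen GFP+RFP+ cells, against 1737 to 1789 in lymph node GFP-RFP+ and 1523 to 1565 in lymph node GFP+RFP+ cells. The 3 NK markers summed to 375 to 376 in spleen GFP-RFP+ and 319 to 325 in spleen GFP+RFP+ cells, against 387 to 399.8 in lymph node GFP-RFP+ and 335 to 366 in lymph node GFP+RFP+ cells. The sums of the 2 CD8 T cell markers lay between 135 and 191 on all arrays. With a pseudocount of 16, 4 myeloid, 1 B cell, 1 plasma cell and 2 erythroid markers passed as higher in spleen, as did 0.573% of all probe sets. The plasma cell marker that passed was Jchain, the immunoglobulin joining chain gene, with an organ difference of 6.89 ± 0.32. Xbp1, also in the plasma cell sum, differed by 0.08 between organs and had 1501 to 1763 on the lymph node arrays, most of the sums there. Most of the NK sums came from Nkg7, at 294 to 385 over all arrays.

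The population comparison asks whether the 6 genes differ between cells labelled peripherally induced and cells labelled thymically induced. Gpr83 was 3.74 times lower in GFP-RFP+ cells than in GFP+RFP+ cells, the largest difference among the 6 genes. Igfbp4 and Swap70 were lower too, by factors of 1.74 and 1.44, Cd83 was 1.73 times higher, and the brightest probe set of Nrp1 was within a factor of 1.03. In each organ, 11 of the 16 probe sets had no overlap between the populations in the same direction, 9 with GFP-RFP+ lower and 2 with GFP-RFP+ higher. Over all probe sets tested, 25.8% behaved this way, 10.3% with GFP-RFP+ lower and 15.5% higher.

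The test across organs was a limma fit on the 4 pools with organ as a second factor, which leaves 1 residual degree of freedom. No probe set of 45037 passed an adjusted p of 0.05 in this fit (0%), and 7714 (17.1%) had an unadjusted p under 0.05. None of the 16 probe sets passed. The count depends on the pseudocount: with a pseudocount of 16 instead of 1, the same fit called 3700 probe sets (8.22%), 2690 of them (5.97%) higher and 1010 (2.24%) lower in GFP-RFP+ cells. Then 10 of the 16 probe sets passed, 9 lower and 1 higher. With a pseudocount of 1, quantile normalization and the omission of any 1 array also gave no call. An exact permutation test of one gene over the pools, with organ as block, cannot go below a two-sided p of 0.5. The adjusted p-values given for single genes are those of the limma fit across organs, each followed by its value with a pseudocount of 16. Within an organ, where p-values cover only the spread between technical arrays, 2 of the 16 probe sets passed in lymph nodes, both of Gpr83 and both lower in GFP-RFP+ cells. Of all probe sets tested there, 979 passed (2.17%), 805 of them higher (1.79%) and 174 lower (0.386%), and 17.2% had an unadjusted p under 0.05. In spleen 5 of the 16 passed: both of Gpr83 and 2 of Igfbp4, lower, and Cd83, higher. The Igfbp4 calls there were not stable: the adjusted p of 1423756_s_at was 0.0218, but 0.0507 to 0.123 with any 1 array left out, and that of 1437406_x_at was 0.0492, but 0.0972 to 0.193 with any 1 left out except the first spleen GFP-RFP+ array (0.0465). With the replicate block these p-values were 0.0581 and 0.101. Without either spleen GFP+RFP+ array, no probe set of all passed in spleen. Of all probe sets 1767 passed there (3.92%), 1319 higher (2.93%) and 448 lower (0.995%), and 19.8% had an unadjusted p under 0.05. The share of higher calls in spleen was 74.6%, and 62.0% after quantile normalization. None of the 16 passed the limma test of the difference between the organs, in which 1 probe set of all passed (0.00222%, lower in direction) and 5.77% had an unadjusted p under 0.05.

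The median population difference of the 6 genes was -0.29, each gene at its brightest probe set, against 0.01 over all probe sets tested.

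**Figure D1:**
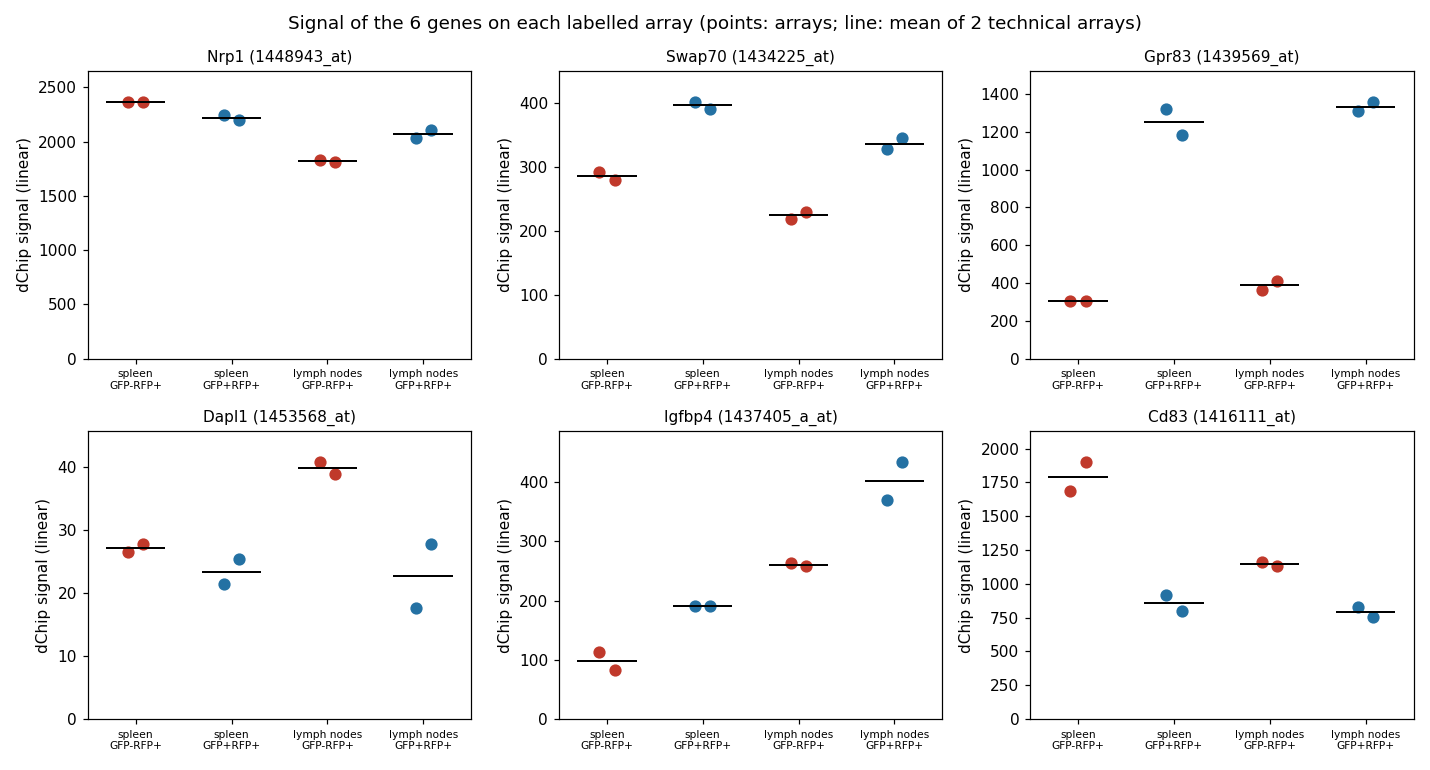
Signal (linear dChip scale, y axis from 0) of the brightest probe set of each gene on the 8 labelled arrays, by organ and population on the x axis. Points are arrays and lines are means of the 2 technical arrays. Gpr83 lies between 306 and 410.5 on the 4 GFP-RFP+ arrays and between 1184 and 1359 on the 4 GFP+RFP+ arrays.

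Nrp1 encodes neuropilin 1, a membrane receptor for semaphorins and a co-receptor for vascular endothelial growth factor. It is measured by 4 probe sets. The brightest, 1448943_at, had 2367 and 2365 in spleen GFP-RFP+ cells, against 2243 and 2197 in spleen GFP+RFP+ cells. In lymph nodes it had 1834 and 1809 in GFP-RFP+ cells, against 2028 and 2107 in GFP+RFP+ cells. The populations did not overlap in either organ, but GFP-RFP+ cells were higher in spleen and lower in lymph nodes. The difference across organs was -0.05 ± 0.14 (limma SE, 2 pools each), with a 95% interval of -0.51 to 0.42 and adjusted p = 0.886 (0.846 with a pseudocount of 16).

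The second Nrp1 probe set, 1418084_at, had 1811 and 1656 in spleen GFP-RFP+ cells, against 1321 and 1403 in spleen GFP+RFP+ cells. In lymph nodes it had 1275 and 1219 in GFP-RFP+ cells, against 1244 and 1204 in GFP+RFP+ cells. The third, 1448944_at, had 1596 and 1456 in spleen GFP-RFP+ cells, against 1143 and 1279.9 in spleen GFP+RFP+ cells, and 1111 and 1050.05 in lymph node GFP-RFP+ cells, against 1149.8 and 1093 in lymph node GFP+RFP+ cells. For both, GFP-RFP+ was higher in spleen, while the lymph node arrays of the populations overlapped. Their differences across organs were 0.19 ± 0.15 and 0.14 ± 0.16.

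The fourth Nrp1 probe set, 1457198_at, went another way. It had 173 and 236 in spleen GFP-RFP+ cells, against 367 and 333 in spleen GFP+RFP+ cells, and 107 and 160.5 in lymph node GFP-RFP+ cells, against 258 and 288 in lymph node GFP+RFP+ cells. All 4 GFP-RFP+ arrays were below all 4 GFP+RFP+ arrays, as for 7.42% of all probe sets. The difference was -0.92 ± 0.14 (adjusted p = 0.250, and 0.00575 with a pseudocount of 16). It was called present on 7 of the 8 arrays, and the deposited table gives it another target name than that shared by the other 3. Over the 8 arrays, which are 4 pools measured in duplicate, its log2 signal correlated with theirs at r = 0.56, -0.06 and 0.02, whereas those 3 correlated with each other at 0.763 to 0.985. The 4 probe sets of Nrp1 thus gave values of opposite sign for 1 gene.

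Of 13 partners and relatives of Nrp1, namely its relative Nrp2, plexins, semaphorins, growth factor genes and the adaptor gene Gipc1, none passed with either pseudocount. Their median difference was -0.07. Sema4a, whose protein is a semaphorin ligand of neuropilin 1 on regulatory T cells, differed by -0.14, and Plxna1, which encodes a plexin co-receptor, by -0.07. Vegfa showed 0.92 but was called present on no array.

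Swap70 encodes a protein that binds phosphoinositides and the small GTPase Rac and acts on the actin cytoskeleton, best known in B cells and mast cells. Its brighter probe set, 1434225_at, had 292 and 279 in spleen GFP-RFP+ cells, against 402 and 391 in spleen GFP+RFP+ cells. In lymph nodes it had 219 and 229.5 in GFP-RFP+ cells, against 328 and 345 in GFP+RFP+ cells. All GFP-RFP+ arrays lay below all GFP+RFP+ arrays. The difference was -0.53 ± 0.11 (adjusted p = 0.256, and 0.0237 with a pseudocount of 16).

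The other Swap70 probe set, 1423543_at, had 210.3 and 178 in spleen GFP-RFP+ cells, against 283 and 284 in spleen GFP+RFP+ cells, and 144 and 152 in lymph node GFP-RFP+ cells, against 231 and 260.3 in lymph node GFP+RFP+ cells. It differed by -0.64 ± 0.12 and correlated with the brighter one at r = 0.99. Both probe sets thus gave the same direction in both organs. The 4 relatives and partners, the paralogue Def6 and the GTPase genes Rac1, Rac2 and Cdc42, were called present on all arrays, and none passed with either pseudocount, with differences of 0.01 to 0.07.

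The 250 bases before the annotated start of Swap70 are shown because Foxp3 belongs to the forkhead family and this window holds the forkhead core letters TGTTTAC. The same letters stand, on the opposite strand as GTAAACA, in the window of Dapl1. The motif was chosen after the sequences had been read. Capitals mark the forkhead core in both and the TATA box letters TATAAA in Dapl1. Sequences are from RefSeq, build GRCm38.p6, plus strand, written 5′ to 3′.
Swap70 chr7:110221453-110221702: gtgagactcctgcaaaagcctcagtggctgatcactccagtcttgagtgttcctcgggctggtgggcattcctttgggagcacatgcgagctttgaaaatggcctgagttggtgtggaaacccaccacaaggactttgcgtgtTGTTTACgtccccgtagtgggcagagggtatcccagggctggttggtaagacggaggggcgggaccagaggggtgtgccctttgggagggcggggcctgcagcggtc
Dapl1 chr2:59484403-59484652: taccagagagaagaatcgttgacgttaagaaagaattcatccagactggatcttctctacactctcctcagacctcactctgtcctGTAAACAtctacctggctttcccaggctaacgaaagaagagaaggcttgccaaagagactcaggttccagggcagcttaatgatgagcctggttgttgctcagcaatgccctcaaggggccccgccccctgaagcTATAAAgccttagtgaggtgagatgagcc

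The forkhead letters lie 107 to 101 bases before the start of Swap70 and 164 to 158 bases before that of Dapl1. Of 32851 RefSeq windows of 250 bases, 3.17% hold them on either strand, and 7.59% hold TATAAA on the gene's own strand. Of the 6 genes, 5 were matched to a window, all but Cd83. The windows of Nrp1, Gpr83 and Igfbp4 do not end at the annotated start of the gene, unlike those of Swap70 and Dapl1. They hold no forkhead core. That of Igfbp4 holds TATAAA at bases 28 to 23 counted back from the end of the window, which is not a distance from the gene start. These are matches of letters and not sites shown to be bound. The population differences of the genes that share the letters were -0.53 ± 0.11 for Swap70 and 0.51 ± 0.21 for Dapl1. Neither passed with a pseudocount of 1, and Dapl1 did not pass with 16 either. A link between the letters and these differences was not tested.

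Gpr83 encodes a G protein-coupled receptor that is abundant in regulatory T cells compared with other CD4+ T cells. Its brighter probe set, 1439569_at, had 306 and 307 in spleen GFP-RFP+ cells, against 1323 and 1184 in spleen GFP+RFP+ cells. In lymph nodes it had 366 and 410.5 in GFP-RFP+ cells, against 1308 and 1359 in GFP+RFP+ cells. The 2 populations were far apart in both organs. The difference was -1.90 ± 0.13, with a 95% interval of -2.35 to -1.46, an unadjusted p of 0.0012 and an adjusted p of 0.250 (0.000651 with a pseudocount of 16).

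The second probe set, 1423415_at, had 316 and 243 in spleen GFP-RFP+ cells, against 1014 and 1005 in spleen GFP+RFP+ cells, and 331 and 345 in lymph node GFP-RFP+ cells, against 1087 and 1138 in lymph node GFP+RFP+ cells. It differed by -1.79 ± 0.12 (adjusted p = 0.250, and 0.000645 with a pseudocount of 16), and the pair correlated at r = 0.99. Ranked by absolute difference over all 45037 probe sets, the Gpr83 probe sets stood at 188 and 227. Within organs, where the spread is that between technical arrays only, the brighter probe set was 4.07 times lower in spleen (limma adjusted p = 0.00694) and 3.43 times lower in lymph nodes (limma adjusted p = 0.0121). In spleen that adjusted p was 0.0563 or 0.0644 with either GFP+RFP+ array left out, and in lymph nodes it was 0.0956 to 0.104 with any 1 of the 4 lymph node arrays left out. The difference between organs was -0.25 ± 0.16, with an interval of -0.65 to 0.16, both over the spread between technical arrays only.

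Dapl1 encodes a small protein related to the death-associated protein Dap and known from epithelial differentiation. Its only probe set, 1453568_at, was dim: it had 26.6 and 27.8 in spleen GFP-RFP+ cells, against 21.4 and 25.3 in spleen GFP+RFP+ cells. In lymph nodes it had 40.8 and 38.8 in GFP-RFP+ cells, against 17.7 and 27.8 in GFP+RFP+ cells. It was called present on all 8 arrays, although these signals lie close to the array medians. GFP-RFP+ arrays were the higher ones within each organ, and the gap was wider in lymph nodes, at 0.82 ± 0.22, than in spleen, at 0.21 ± 0.22. Both errors cover only the spread between technical arrays. The difference across organs was 0.51 ± 0.21 (adjusted p = 0.363, and 0.156 with a pseudocount of 16), and the difference between organs did not pass (adjusted p = 0.926, array spread). One of the GFP+RFP+ lymph node arrays, at 27.8, equalled the higher spleen GFP-RFP+ array and lay above the other, at 26.6, so the 4 arrays of each population overlapped across organs. Dap, the relative, had 0.41 and passed only with a pseudocount of 16.

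**Figure D2:**
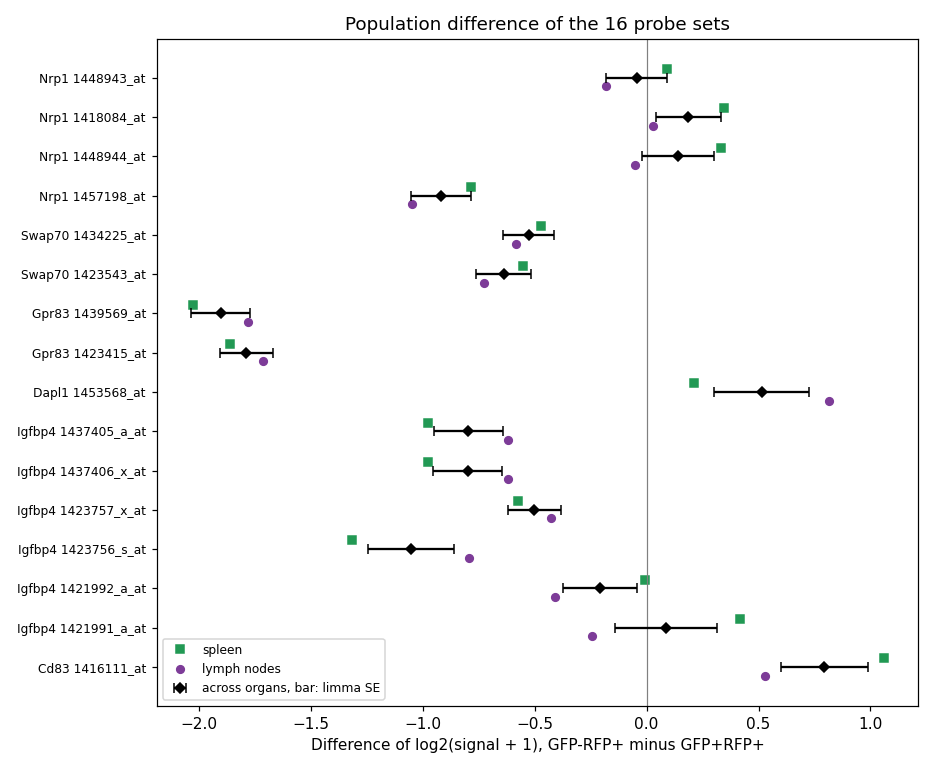
Difference of log2(signal + 1), GFP-RFP+ minus GFP+RFP+, on the x axis for the 16 probe sets. Black diamonds are the estimate across organs with the limma standard error, green squares the difference in spleen, and purple circles that in lymph nodes. Gpr83 sits at -1.90 and -1.79, while 3 of the 4 Nrp1 probe sets lie close to 0.

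Igfbp4 encodes a secreted protein that binds insulin-like growth factors and limits their access to receptors. It has 6 probe sets that fall into 2 kinds. The brightest, 1437405_a_at, had 113 and 82.4 in spleen GFP-RFP+ cells, against 191 and 191 in spleen GFP+RFP+ cells. The lymph nodes gave 263 and 258 in GFP-RFP+ cells, against 369.8 and 434 in GFP+RFP+ cells. GFP-RFP+ cells were lower in each organ, and spleen was lower than lymph nodes in each population. The population difference was -0.80 ± 0.15 (adjusted p = 0.250, and 0.0120 with a pseudocount of 16).

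The probe set 1423756_s_at gave the widest gap, with 56.0 and 45.2 in spleen GFP-RFP+ cells, against 124 and 129.8 in spleen GFP+RFP+ cells. On the lymph node arrays it had 159 and 153 in GFP-RFP+ cells, against 243 and 302 in GFP+RFP+ cells. It differed by -1.05 ± 0.19. The probe sets 1437406_x_at, called present on 6 arrays and absent on 2, and 1423757_x_at differed by -0.80 ± 0.15 and -0.50 ± 0.12. These 4 probe sets correlated with each other at r = 0.979 to 0.999 over the 8 arrays. They all passed with a pseudocount of 16, and suffixes of the array design mark 3 of them as able to bind related transcripts, so they are not independent measurements.

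The other 2 Igfbp4 probe sets did not follow. The probe set 1421992_a_at had 103 and 85.3 in spleen GFP-RFP+ cells, against 95.1 and 93.4 in spleen GFP+RFP+ cells, and 89.7 and 92.4 in lymph node GFP-RFP+ cells, against 133 and 111 in lymph node GFP+RFP+ cells. It differed by -0.21 ± 0.16 and correlated with those 4 at 0.57 to 0.61. The probe set 1421991_a_at was called absent on all 8 arrays, with signals of at most 11.6, and gives no level of the gene. Thus 4 of the 6 Igfbp4 probe sets were lower in GFP-RFP+ cells without overlap of the arrays in each organ. The gene has nevertheless been proposed for extrathymic origin. The probe set 1421992_a_at, called present on all 8 arrays, overlapped between the populations in spleen. Its difference was -0.01 there and -0.41 in lymph nodes.

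Of 10 partners and relatives of Igfbp4, none passed across organs with a pseudocount of 1, and 1 rose and 1 fell with a pseudocount of 16 (8.22% of all probe sets passed there). The one that fell was Igf2r, whose product is the receptor that takes up insulin-like growth factor 2 and lysosomal enzymes. It had 708 and 686 in spleen GFP-RFP+ cells, against 1402 and 1347 in spleen GFP+RFP+ cells, and 709.6 and 822 in lymph node GFP-RFP+ cells, against 1423 and 1519 in lymph node GFP+RFP+ cells. Its difference was -0.96 ± 0.11 (adjusted p = 0.250, and 0.00282 with a pseudocount of 16). The one that rose was Igfbp7, a dim relative, with a difference of 0.92 ± 0.23. Igf1r, the signalling receptor, differed by 0.02. Igfbp5 showed 1.39 at signals of at most 7.88 and was called present on 1 array.

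Cd83 encodes a membrane protein of mature dendritic cells and activated lymphocytes that keeps MHC class II and CD86 at the surface by opposing the ubiquitin ligase March1. Its probe set, 1416111_at, had 1685 and 1903 in spleen GFP-RFP+ cells, against 919 and 802 in spleen GFP+RFP+ cells. Its lymph node signals were 1164 and 1129 in GFP-RFP+ cells, against 832 and 758 in GFP+RFP+ cells. All 4 GFP-RFP+ arrays were above all 4 GFP+RFP+ arrays, as for 12.0% of all probe sets. The difference was 0.79 ± 0.19 (adjusted p = 0.268, and 0.0231 with a pseudocount of 16), with 1.06 ± 0.13 in spleen and 0.53 ± 0.13 in lymph nodes, where the error is the spread between technical arrays. The difference between the organs, 0.53 ± 0.18, did not pass (limma adjusted p = 0.822), again over array spread only. In spleen Cd83 passed (limma adjusted p = 0.0209 over array spread), but with any 1 of the 8 arrays left out that p was 0.0554 to 0.107.

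Dendritic cells and B cells also express Cd83, and their markers were highest in the spleen pools. In lymph nodes the myeloid and dendritic cell sums lay at 142 to 146 in GFP-RFP+ and 146.3 to 146.5 in GFP+RFP+ cells, and the B cell sums were lower in GFP-RFP+ cells, at 140.0 to 148, than in GFP+RFP+ cells, at 214 to 215. Cd83 was higher in GFP-RFP+ cells in both organs, as given above. The part of other cells in the Cd83 values was not tested in either organ. Of the 3 partner genes, March1, Cd86 and Cd80, none passed with either pseudocount, and Cd86 differed by -0.13.

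The organ comparison set spleen against lymph nodes within the same fit. No probe set passed in either direction with a pseudocount of 1 (0%, and 3649 or 8.10% at an unadjusted p under 0.05). With a pseudocount of 16, 258 (0.573%) were higher and 21 (0.0466%) lower in spleen. Those 21 included 4 Igfbp4 probe sets and no other member. The brightest Igfbp4 probe set differed by -1.24 ± 0.15 (adjusted p = 0.586, and 0.00775 with a pseudocount of 16), which is 2.37 times lower in spleen. All 4 spleen arrays were below all 4 lymph node arrays for these 4 probe sets, and 4.72% of all probe sets separated the organs in one direction or the other.

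Nrp1 was slightly higher in spleen with all 4 probe sets, by 0.24 to 0.49, and Swap70 by 0.29 and 0.30. Cd83 was higher by 0.38 ± 0.19, Gpr83 lower by 0.21 with both probe sets, and Dapl1 differed by -0.23 ± 0.21. None of these passed with either pseudocount, adjusted p between 0.610 and 0.833 with a pseudocount of 1. For Nrp1 the spleen arrays were all above the lymph node arrays in the 2 brightest probe sets. The markers of myeloid, B and erythroid cells given above also separated the organs: Csf1r, the macrophage growth factor receptor gene, had 877 and 642 in spleen GFP-RFP+ and 564 and 723 in spleen GFP+RFP+ cells, against 18.8 and 19.5 in lymph node GFP-RFP+ and 22.1 and 25.4 in lymph node GFP+RFP+ cells. Neuropilin 1 is also made by myeloid cells, and the part of such cells in the organ difference was not tested.

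**Figure D3:**
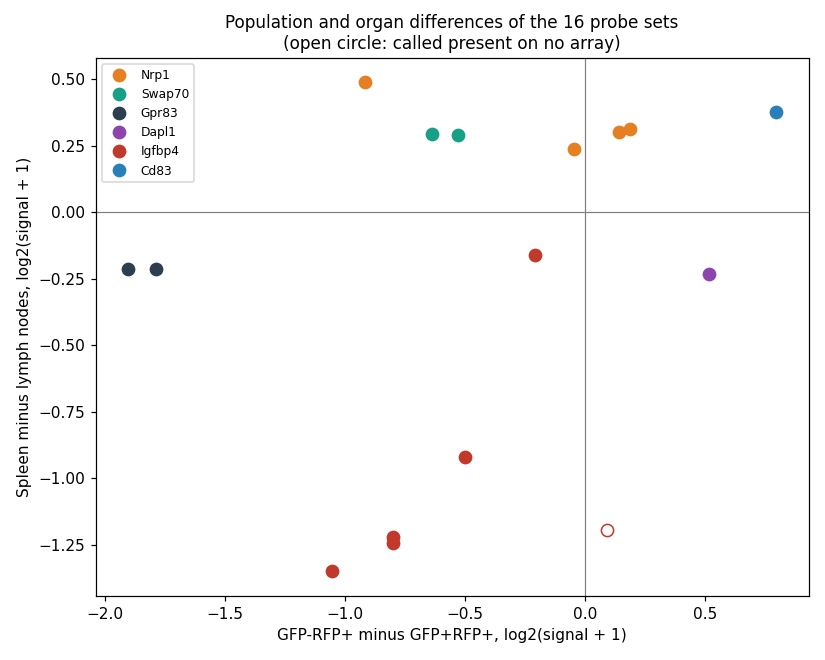
Population difference (x axis) against organ difference (y axis), both in log2(signal + 1), for the 16 probe sets, coloured by gene. The open circle is the Igfbp4 probe set called present on no array. Gpr83 lies far left with an organ difference near -0.21, while 4 Igfbp4 probe sets lie to the lower left.

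Correlations between the genes over the 8 arrays describe 4 pools that were each measured in duplicate, so they are given without a test. Gpr83 and Cd83 ran opposite to each other, with r = -0.91 (Spearman's rho -0.88). Swap70 and Gpr83 correlated at 0.80 (rho 0.67), and Gpr83 and Igfbp4 at 0.62 (rho 0.64). Igfbp4 and Cd83 ran opposite, at -0.84 (rho -0.71), whereas Swap70 and Igfbp4 showed 0.06 (rho 0.00). The brightest Nrp1 probe set correlated with Gpr83 at 0.03 (rho -0.31), and 1418084_at, 1448944_at and 1457198_at at -0.57, -0.47 and 0.77. Of the pairs proposed for the same origin, Nrp1 and Swap70 correlated at 0.60 (rho 0.40), and Dapl1 and Igfbp4 at -0.03 (rho 0.08). These pairs are given at the brightest probe sets. With the same Swap70 probe set, Nrp1 1418084_at, 1448944_at and 1457198_at correlated at 0.00, 0.09 and 0.94. The values for Nrp1 thus depended on the probe set.

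**Figure D4:**
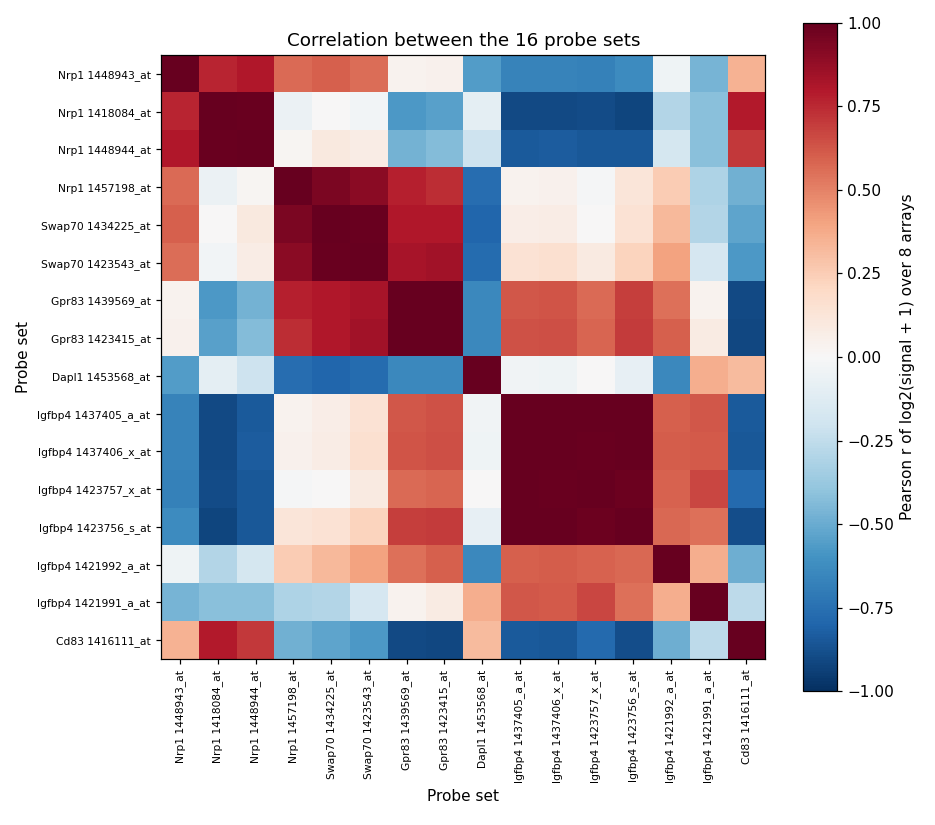
Pearson correlation (colour scale from -1 to 1) of log2(signal + 1) over the 8 arrays for each pair of the 16 probe sets, listed by gene on both axes. Of the Nrp1 probe sets, 1457198_at stands nearer to Swap70 than to the other Nrp1 probe sets, and 4 of the Igfbp4 probe sets form a block at 0.979 to 0.999.

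Other genes were ranked by how alike their log2 pattern was to that of each member over the 8 arrays, among 2470 probe sets above the median level, with a range of at least 1 on the log2 scale. Closest to Gpr83 were Rcn1, which encodes a calcium-binding protein of the endoplasmic reticulum, and Ikzf4, which encodes Eos, a partner of Foxp3, at r = 0.997 and 0.996. Closest to Igfbp4 were Ccr9, the chemokine receptor gene of gut homing (0.99), and Socs2, a suppressor of cytokine signalling (0.98). Swap70 was followed by H2-Ob, an MHC class II chain gene (0.98), and the collagen gene Col6a4 (0.98), and Cd83 by Grasp (0.99) and Vars2 (0.98). Nrp1 was followed by the phosphodiesterase gene Pde2a (0.97) and the interferon-induced gene Ifitm3 (0.95), and Dapl1 by Nfx1 and Herc3 (both 0.94).

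Among 11 measured genes of 12 others that have been linked to origin or state of regulatory T cells, none passed across organs with a pseudocount of 1. With a pseudocount of 16, 4 rose and 2 fell in GFP-RFP+ cells, where 5.97% of all probe sets rose and 2.24% fell. Those that rose were Il10, Gzmb, Maf and Itgae, and those that fell were Ecm1 and Ikzf4. The largest difference was that of Il10, the gene of the suppressive cytokine interleukin 10, with 1031 and 1223 in spleen GFP-RFP+ cells, against 32.5 and 36.7 in spleen GFP+RFP+ cells. The lymph node values were 920.5 and 795 in GFP-RFP+ cells, against 55.5 and 68.4 in GFP+RFP+ cells, a difference of 4.38 ± 0.38 across organs (adjusted p = 0.250, and 0.000726 with a pseudocount of 16).

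Gzmb, which encodes granzyme B, was 5.38 times higher, and Maf, a transcription factor gene linked to Il10, 1.89 times higher. Ecm1, which encodes an extracellular matrix protein, was 2.82 times lower in GFP-RFP+ cells. Itgae, the gene of the integrin chain CD103, differed by 0.50 ± 0.13 (adjusted p = 0.276, and 0.0348 with a pseudocount of 16), and Ikzf4 by -0.65 ± 0.11 (adjusted p = 0.250, and 0.0106 with a pseudocount of 16). Ikzf2, which encodes Helios and has been proposed for thymic origin, differed by -0.12 ± 0.11 (adjusted p = 0.613, and 0.466 with a pseudocount of 16). The median of the 11 was 0.27.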

How the data were processed

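RNA of 4 pools of sorted mouse T cells was measured on 8 one-colour Affymetrix arrays. According to the header of the deposited file, the intensity values are unlogged dChip signals, and each array also has a column of detection calls (present, marginal or absent) in the deposited table. The submitters' processing notes name RMA instead. The table whose columns carry sample names holds, for all 45101 probe sets, the same 8 values as the dChip table, so its signals could be tied to groups. The columns of the dChip table have names that match no label. Its 8 signal columns served only for this comparison, and its 8 call columns only as counts of arrays.

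After leaving out 64 controls, log2(signal + 1) of the 2 technical arrays was averaged per pool and fitted with limma 3.58.1 in R 4.3.3, with organ and population as factors and Benjamini-Hochberg adjustment over 45037 probe sets. A second fit on the 8 arrays gave within-organ contrasts, whose p-values measure array spread only. The fits were tested on simulated data. The brightest probe set stands for a gene, and since no list gene passed, the 4 largest differences among the other origin genes and among the partners were named. Ikzf2, Ikzf4, Itgae, Dap, Sema4a, Plxna1, the Swap70 partners, Igf1r, Cd86 and the cell type markers singled out were named outside this rule, after their values were seen. Alternatives were a pseudocount of 16, a filter at the median level, an intensity trend, quantile normalization, unaveraged arrays, a replicate block, the mean of a gene's probe sets, and leaving out each array. The members and lists were chosen with earlier results of these data known. Replicate numbers did not pair the arrays, since same-numbered deviations correlated at -0.05 to 0.02. One planned list gene, Itgb8, and the markers Trac and Cd79a had no probe set with 1 identifier. Symbols were matched through a RefSeq gene table of GRCm38.p6.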

Additional observations from a re-analysis of the deposited data

Results flagged for a closer look

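The brightest Nrp1 probe set, 1448943_at, stood out because its arrays moved in opposite directions in the 2 organs: both GFP-RFP+ arrays were above both GFP+RFP+ arrays in spleen (difference 0.09 on the log2 scale) and below both in lymph nodes (-0.18). The difference between organs was 0.27 ± 0.13, which did not pass (limma adjusted p = 0.911 over array spread). With 2 arrays per pool, no pool could be searched for an outlying array.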

How the results depend on the processing

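The across-organ differences of the 6 genes' brightest probe sets kept their direction under each alternative run. Leaving aside the mean of a gene's probe sets, they ran from -1.98 to -1.86 for Gpr83 and 0.70 to 0.84 for Cd83. Adjusted p changed far more. Across organs, the 4-pool fit called 0 higher, 0 lower and 0 of 16 member probe sets. It called 3361, 1468 and 10 with the 8 arrays as separate values, 3157, 1461 and 10 above the median level, 4562, 2406 and 10 with an intensity trend, and 2690, 1010 and 10 with a pseudocount of 16. Quantile normalization and each left-out array gave 0. For spleen against lymph nodes the counts of 0 became 294, 56 and 4, then 150, 14 and 3, then 640, 232 and 7, then 258, 21 and 4 in the same order, and 0 with each left-out array. The cause was not tested. The filter at the median level tested only the probe sets above it and left out Igfbp4 1421991_a_at. Its counts are therefore out of fewer probe sets and fewer members than those of the other settings, in both comparisons. The replicate block, which pairs arrays by number only, gave 2721, 1078 and 9 for the populations and 185, 11 and 1 for the organs; within lymph nodes it gave 190 and 24, against 805 and 174 without it, and within spleen 486, 82 and 2, against 1319, 448 and 5. Quantile normalization gave 4 member probe sets in lymph nodes (2 without it), and 691 lower and 8 members in spleen; the share called higher in spleen went to 62.0% with it, against 74.6%. With each array left out in turn, lymph nodes gave 1 to 510 higher, 0 to 119 lower and 0 to 2 members, spleen 0 to 430, 0 to 122 and 0 to 3, and the difference between organs 0 to 1 lower. A lone array of a pool was assumed to vary like the others. Without either spleen GFP+RFP+ array, spleen had no call, and without any 1 lymph node array no member passed there. Averaging a gene's probe sets moved the mean log2 level to 9.89 for Nrp1 and 6.32 for Igfbp4, and a pseudocount of 16 moved Dapl1 to 5.45. Dapl1 lies near the array medians, where signal limits what can be told.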
